A study of Mus musculus with 30 samples.

Results

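The mitochondrial solute carriers were taken as the genes whose mouse symbol is Slc25a followed only by a number, which gave 47 of the 48795 genes in the count tables. Of these, 42 had enough counts to be tested, among 16844 genes of the whole series. RNA came from primary endothelial cells of the brains of wild-type mice that had received no treatment, whose ages were 2, 6, 12, 18 or 24 months. Each age had 6 libraries, 3 of males and 3 of females, and the study asked which genes change with age once sex is corrected for. The labels do not say how the cells were purified or whether each library is 1 mouse or a pool of mice, so p-values measure only the spread between these libraries. Levels are in CPM, the counts scaled to the same library total, and a change is called where the p-value of edgeR's quasi-likelihood test, adjusted over all genes tested by the method of Benjamini and Hochberg, is under 0.05.

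Slc25 proteins sit mostly in the inner mitochondrial membrane, which small molecules do not cross on their own, and exchange or import one class of metabolite each. They carry ADP against ATP, phosphate, citrate, malate, glutamate, carnitine esters, iron, glutathione and other cofactors, and so link the cytosol to respiration, haem and iron-sulphur cluster synthesis and redox balance. Brain endothelial cells use them for the same tasks while also forming the blood-brain barrier.

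Depth was 24140980 to 50464366 counts in genes per library, so that 3 counts corresponded to 0.0616 to 0.125 CPM. Summed over 8 markers, endothelial genes reached 14420 to 19320 CPM per library, against 191 to 1180 CPM for 7 astrocyte markers and 1.74 to 8.56 CPM for 6 neuron markers. Other sums reached at most 1072 CPM for microglia, 1164 CPM for pericytes, 1955 CPM for oligodendrocytes and 2732 CPM for red cells. Choroid plexus markers summed to 159 to 6981 CPM, with means of 2873, 896.9 and 1395 CPM for the libraries of 2, 18 and 24 months. In the slope on age 4 of 6 choroid plexus markers and 2 of 7 astrocyte markers fell and 3 of 7 pericyte markers rose, and their part in the members' changes was not tested. The share of reads outside genes was 5.06 ± 0.971% (SD, n = 6) at 2 months and 10.3 ± 2.13% at 18 months. At 24 months it was 7.19 ± 1.76%, and its highest values lay in the 18-month libraries. The 18-month libraries lay above all 2-month libraries in this share and overlapped those of 24 months. Changes of named members at 18 months are also given with this share held as a covariate.

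The members spanned a wide range of levels. By mean CPM over the 30 libraries, 6 of the 42 tested members exceeded 100, 25 lay between 10 and 100, 8 between 1 and 10, and 3 reached at most 1 (Slc25a21, Slc25a34 and Slc25a43). The 5 members with too few counts to test were Slc25a2, Slc25a31, Slc25a41, Slc25a48 and Slc25a54, with means of 0.00536 to 0.115 CPM. Slc25a31, the ADP/ATP carrier of germ cells, was at 0 in 17 of 30 libraries.

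**Figure D1:**
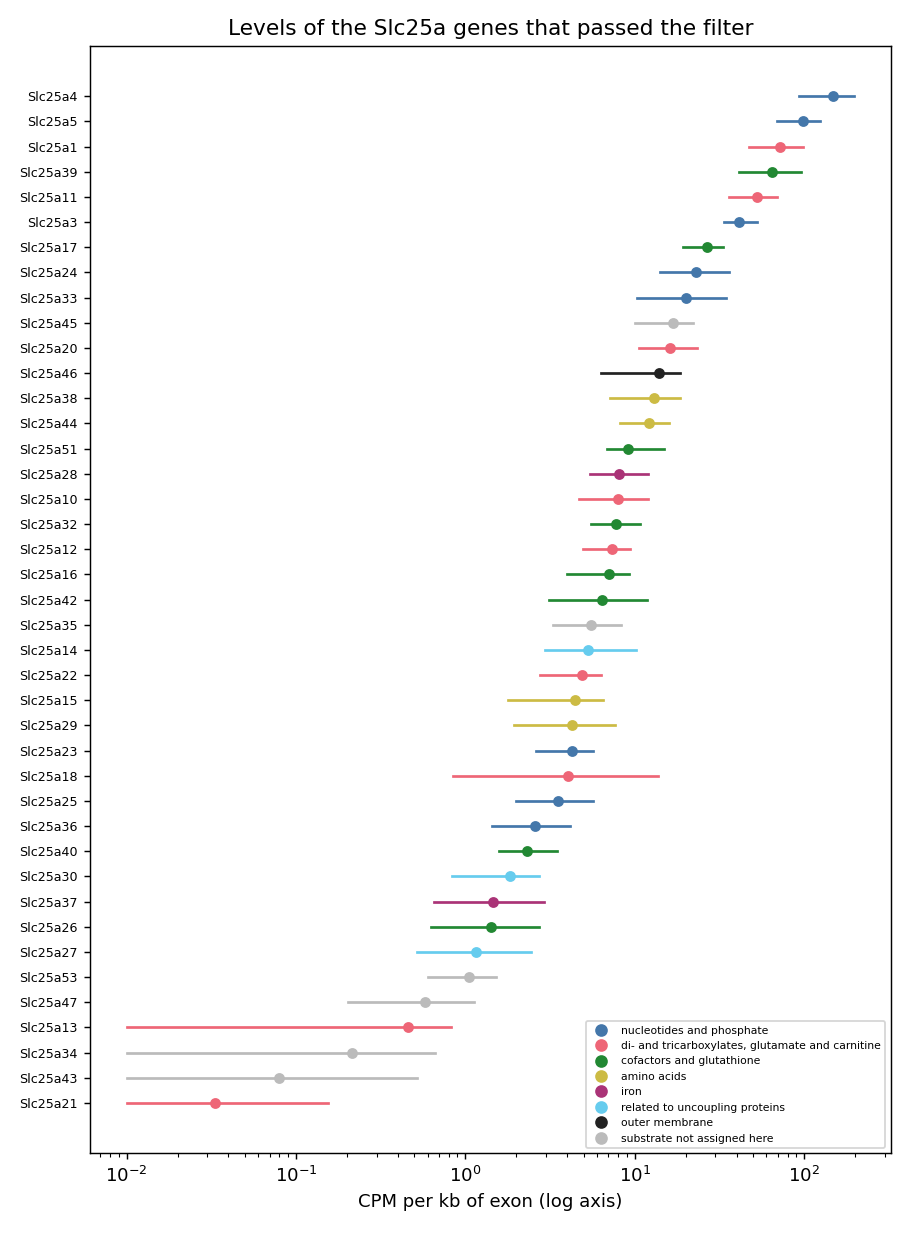
Level of 41 of the 42 tested members in CPM per kb of exon on a log axis; points are means over 30 libraries, lines run from the lowest to the highest library, and colours give the kind of substrate. A line that would reach 0 is cut at the left end of the plot, which concerns the lowest members. Slc25a4 and Slc25a5 stand at the top with means of 148.2 and 99.0.

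Per kb of exon, the ADP/ATP carriers stood first. Slc25a4, which with Slc25a5 exchanges cytosolic ADP for matrix ATP, had a mean of 148.2 ± 23.6 CPM per kb (SD, n = 30), and Slc25a5 had 99.0 ± 14.7 CPM per kb. Slc25a4 was above Slc25a5 in 30 of 30 libraries. The citrate carrier Slc25a1 followed with 72.1 ± 11.6 CPM per kb, and the glutathione importer Slc25a39 with 64.88 ± 14.96 CPM per kb. These neighbours overlapped, with Slc25a1 the higher in 20 of 30 libraries. In every library of 2 months Slc25a39 was the higher of the pair. The oxoglutarate and malate carrier Slc25a11 had 52.7 ± 7.79 CPM per kb, and the phosphate carrier Slc25a3 had 41.2 ± 4.36 CPM per kb. Slc25a3 was above the next member, the peroxisomal carrier Slc25a17, in all 30 libraries. The length is that of all annotated exons, 5550 bases for Slc25a3, whose longest coding transcript has 1612 bases. By mean CPM Slc25a3 (228.4) came after Slc25a4 (348.7) and before Slc25a39 (178.8) and Slc25a5 (163.0). The order thus depends on the length used.

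The ADP/ATP carriers are close relatives, which matters for counts of short reads, so the stretch of their coding sequences around the most alike part is shown. The coding sequences, from GENCODE M21 transcripts of GRCm38, are each 894 bases long without the stop codon and are identical at 77.4% of positions, and the longest run of identical bases is 20. Below are bases 62 to 121 counted from the start codon, with the 6 positions at which the genes differ in capitals.
Slc25a4: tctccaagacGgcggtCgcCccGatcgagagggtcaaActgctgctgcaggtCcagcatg
Slc25a5: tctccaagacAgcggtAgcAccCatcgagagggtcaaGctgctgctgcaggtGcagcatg
No window of 50 bases was shared by the genes, so a read of that length without errors tells them apart. Slc25a5, in contrast, shared 46.6% of its 50-base windows with pseudogene copies (Gm5560, Gm5529, Gm5256 and Slc25a5-ps). Reads that match several places are not counted to any gene, so the level of Slc25a5 is uncertain. The pseudogenes with a value held at most 0.336 CPM on average. Slc25a39, Slc25a18, Slc25a27, Slc25a28 and Slc25a4 shared no such window with another gene.

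Over the whole age range, 5 of the 42 members changed in the linear fit, which is 11.9% against 10.9% of all genes tested. Of these 3 were lower and 2 higher, where 5.22% of all genes were called lower and 5.72% higher. The glutathione importer Slc25a39, the ADP/ATP carrier Slc25a5 and the glutamate carrier Slc25a18 fell. The iron importer Slc25a37 and Slc25a27, a relative of the uncoupling proteins found mainly in neural tissue, rose. The share called was near that of all genes, and the median slope of the members was -0.03 on the log2 scale against 0.03 for all genes tested. There were 19 positive and 23 negative slopes, and 11 members had an unadjusted p under 0.05. In bulk libraries, fewer cells that express a gene and less RNA per cell cannot be told apart.

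**Figure D2:**
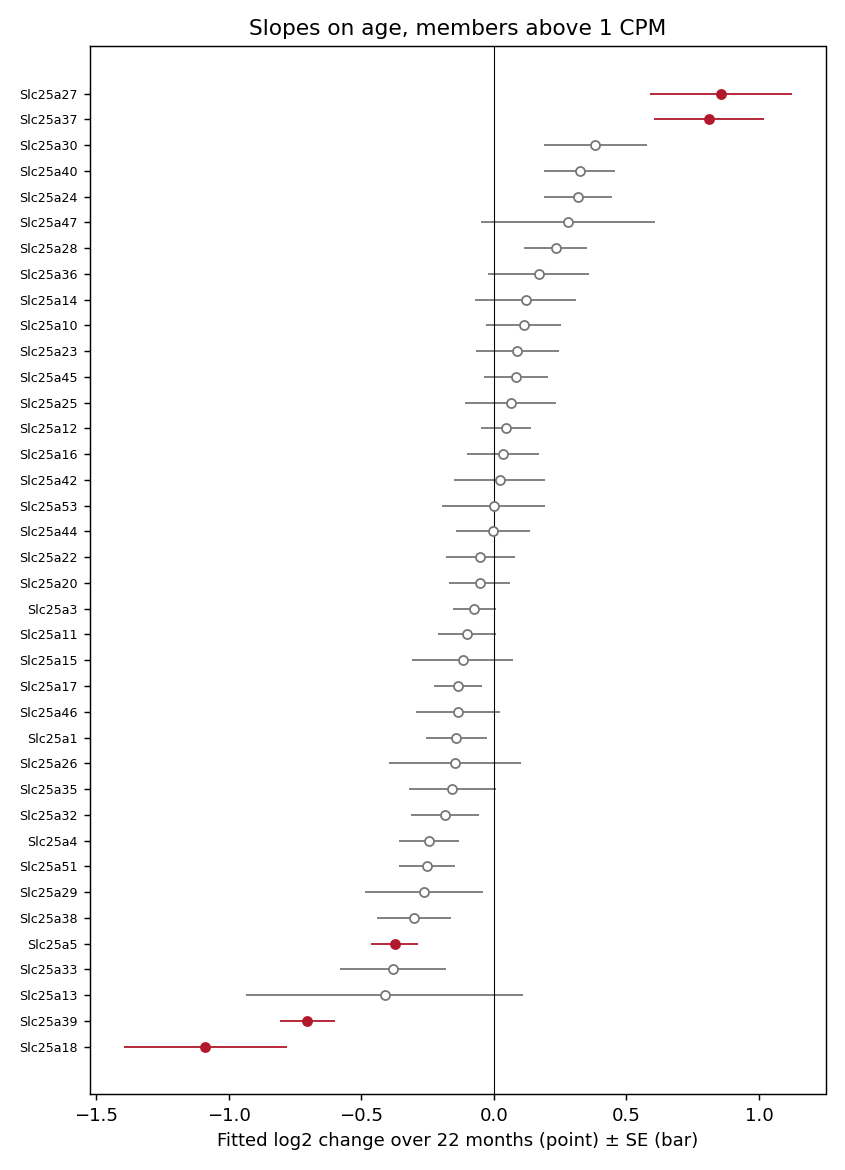
Fitted log2 change of each member from 2 to 24 months (points) with its SE (bars), for 38 of the tested members with a mean above 1 CPM; filled red points passed at an adjusted p under 0.05 in edgeR. Slc25a18 and Slc25a39 lie lowest and Slc25a27 and Slc25a37 highest.

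Slc25a39 (GRCm38 chr11:102402985-102407946, minus strand) had the smallest p-value of the family. In human cells its product brings glutathione into mitochondria together with that of its relative Slc25a40. At 2 months its lowest, median and highest libraries held 215.2, 224.7 and 263.9 CPM. At 12 months they held 151.6, 157.4 and 207.4 CPM, and at 18 months 113.7, 132.3 and 156.0 CPM. The 24-month libraries held 141.9, 153.3 and 160.5 CPM. All 12 libraries of 18 and 24 months lay below all 6 of 2 months. The fitted log2 change over 22 months was -0.70 ± 0.10 (SE), with an adjusted p of 2.848e-05 (edgeR). Against 2 months, the change was -0.45 ± 0.10 at 12 months (adjusted p = 0.007835), -0.81 ± 0.10 at 18 months (adjusted p = 1.17e-06) and -0.62 ± 0.10 at 24 months (adjusted p = 7.313e-05). The slope kept its call when any 1 library was left out, when the 2-month or the 18-month libraries were left out, and with the share of reads outside genes as a covariate, where it was -0.45 ± 0.09 (adjusted p = 0.005464). With that covariate the change at 18 months missed the threshold (-0.45 ± 0.14, adjusted p = 0.1146). Among males alone the slope was -0.56 ± 0.14 and just missed the threshold (adjusted p = 0.0549), and in the 15 female libraries it was -0.85 ± 0.15 (adjusted p = 0.006382).

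The relative Slc25a40 did not pass in the slope. It held 13.6, 17.6 and 21.4 CPM at 2 months (lowest, median and highest library) and 17.2, 20.3 and 25.1 CPM at 24 months, and these ranges overlap. Its slope was 0.32 ± 0.13 (adjusted p = 0.1214 in edgeR). The log2 ratio of Slc25a39 to Slc25a40 within a library, on CPM + 0.5, went from 3.71 ± 0.288 (SD, n = 6) at 2 months to 2.87 ± 0.229 at 24 months. The ranges at these ages were separate, 3.36 to 4.23 against 2.48 to 3.18. The difference was -0.84, with a p of 0.002165 in an exact two-sided permutation test, the smallest that the 924 splits of 6 against 6 libraries allow, and 0.01082 when adjusted over the 10 pairs of relatives that were compared. The summed CPM of the 9 carriers of cofactors and glutathione was 563.3 for the 2-month libraries, 424.0 for those of 18 and 455.7 for those of 24 months. This sum includes Slc25a39, the only 1 of the 9 called in the slope, and in part restates its fall.

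**Figure D3:**
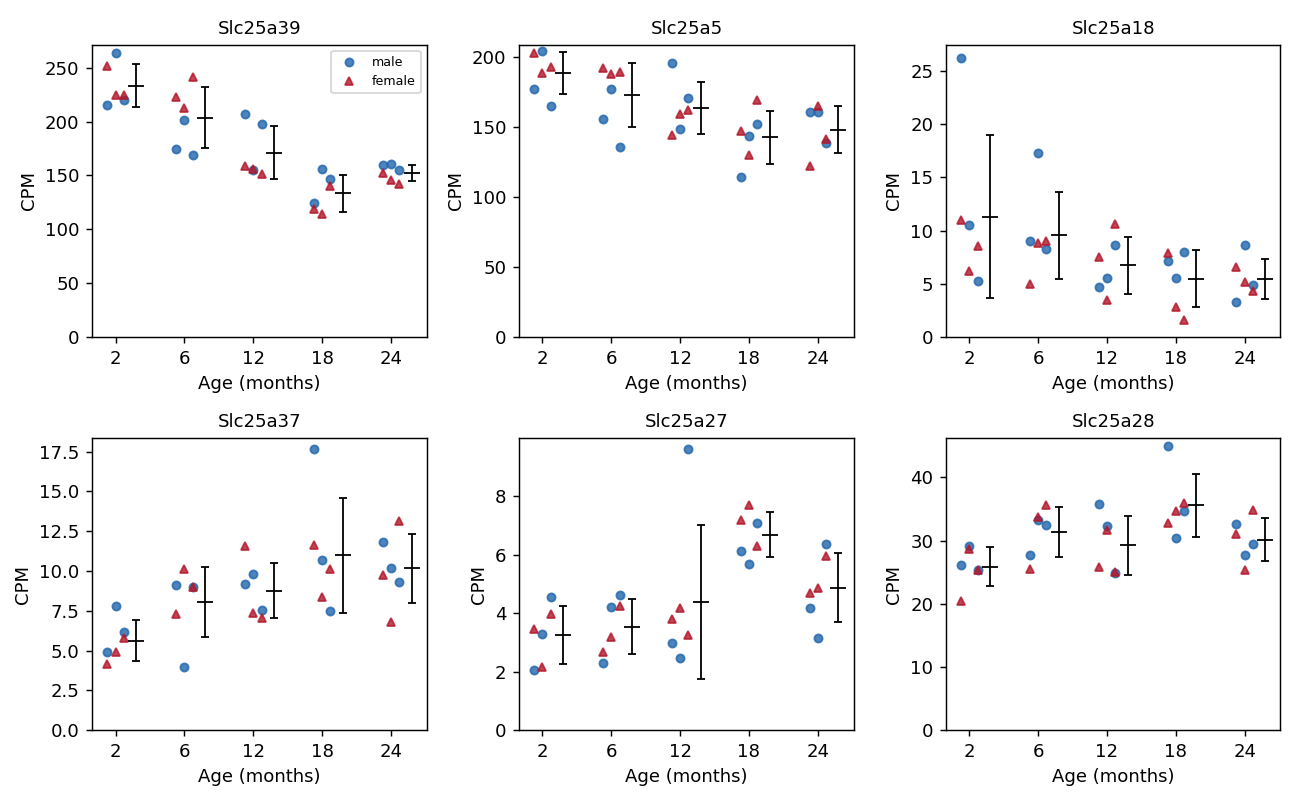
CPM per library by age for the 5 members whose slope on age passed and for Slc25a28, with males as circles and females as triangles; the bar beside each age is the mean ± SD of its 6 libraries. The 18- and 24-month libraries of Slc25a39 lie below all 2-month libraries, and 1 male library of 2 months stands high for Slc25a18 at 26.2 CPM.

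Slc25a5 (GRCm38 chrX:36795651-36798807, plus strand) is the ADP/ATP carrier typical of dividing cells, whereas Slc25a4 is typical of heart and muscle. At 2 months its lowest, median and highest libraries held 164.6, 190.8 and 204.2 CPM. At 18 months they held 114.2, 145.3 and 169.1 CPM, and at 24 months 122.2, 151.0 and 164.7 CPM. The ranges touched at 24 months and overlapped at 18 months. The slope was -0.37 ± 0.09 (adjusted p = 0.006041 in edgeR), and the changes from 2 months were -0.40 ± 0.10 at 18 months (adjusted p = 0.005467) and -0.35 ± 0.10 at 24 months (adjusted p = 0.02704). With the share of reads outside genes as a covariate the slope was -0.21 ± 0.09 (adjusted p = 0.3224) and the change at 18 months -0.06 ± 0.15 (adjusted p = 0.9328). Without the 2-month libraries the slope was -0.35 ± 0.13 (adjusted p = 0.09559). The call at 24 months was lost when any 1 of 6 libraries was left out, with adjusted p up to 0.09587.

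Slc25a4 (GRCm38 chr8:46206797-46211284, minus strand) held 301.8, 367.5 and 413.7 CPM at 2 months, 221.3, 303.3 and 328.5 CPM in the 18-month libraries, and 301.4, 341.2 and 377.7 CPM in those of 24 months. The ranges of 2 and 24 months overlap almost whole. Its slope was -0.24 ± 0.11 (adjusted p = 0.1604 in edgeR), while the change at 18 months was -0.33 ± 0.12 (adjusted p = 0.04431). With reads outside genes as a covariate it was 0.04 ± 0.17 (adjusted p = 0.965), and the call was lost when any 1 of 15 of the 30 libraries was left out, with adjusted p up to 0.1351. The log2 ratio of Slc25a4 to Slc25a5 was 0.946 ± 0.137 (SD, n = 6) at 2 months and 1.19 ± 0.0824 at 24 months, a difference of 0.24 (exact permutation p = 0.008658, adjusted p = 0.02886 over 10 pairs). The ranges overlapped through male replicate 1 of 2 months, which stood at 1.22. Without male replicate 3 or female replicate 1, 2 or 3 of 2 months the difference was 0.23 to 0.24 with an adjusted p of 0.05051. At 18 months the ratio ran from 0.769 to 1.51 and covered the range of all 2-month libraries. The phosphate carrier Slc25a3, which supplies the phosphate for ATP synthesis, had 197.2, 233.6 and 237.0 CPM at 2 months and 212.5, 228.9 and 236.2 CPM at 24 months. Its slope was -0.07 ± 0.08 (adjusted p = 0.602 in edgeR).

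Both mitoferrins, which import iron for haem and iron-sulphur clusters, were higher at 18 months than at 2 months. Slc25a37 (GRCm38 chr14:69241848-69285112, minus strand), the form most abundant in red cell precursors, held 4.13, 5.35 and 7.77 CPM at 2 months (lowest, median and highest library). It held 7.47, 10.4 and 17.7 CPM at 18 months and 6.82, 9.95 and 13.2 CPM at 24 months. Only the highest 2-month library lay within the ranges of the later ages. The slope was 0.81 ± 0.21 (adjusted p = 0.01038 in edgeR), the change at 18 months 0.97 ± 0.22 (adjusted p = 0.002589; 0.71 ± 0.37, adjusted p = 0.4796, with reads outside genes as a covariate) and that at 24 months 0.86 ± 0.22 (adjusted p = 0.01264). The call in the slope was kept when any 1 library was left out and lost without the 18-month libraries (0.70 ± 0.21, adjusted p = 0.05773), without the 2-month libraries (0.45 ± 0.26, adjusted p = 0.3041) and with that covariate (0.60 ± 0.24, adjusted p = 0.2307). Of its 50-base windows 8.07% were shared with other transcripts, among them Gm16867 and Gm31748.

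Slc25a28 (GRCm38 chr19:43663801-43674881, minus strand), the form found in most tissues, held 20.5, 25.8 and 29.2 CPM at 2 months and 30.4, 34.7 and 45.0 CPM at 18 months, with no overlap. The change was 0.46 ± 0.12 (adjusted p = 0.005935 in edgeR) and the call was kept when any 1 library was left out. With reads outside genes as a covariate it was 0.19 ± 0.19 (adjusted p = 0.7826). At 24 months it held 25.3, 30.3 and 34.9 CPM, and the change was 0.22 ± 0.12 (adjusted p = 0.2692). Per kb of exon Slc25a28 was the more abundant form (8.13 against 1.45 CPM per kb on average), and the log2 ratio of Slc25a37 to Slc25a28 went from -2.12 ± 0.218 (SD, n = 6) at 2 months to -1.54 ± 0.173 at 24 months. The ranges of these ages were separate and the difference was 0.58 (exact permutation p = 0.002165, adjusted p = 0.01082 over 10 pairs). The summed CPM of both was 31.5 for the 2-month libraries, 46.6 for those of 18 and 40.3 for those of 24 months. Markers of red cells, such as globin genes, summed to 646.4 ± 207 CPM in the 2-month libraries. The sum was 455.5 ± 328 CPM in those of 18 months and 847.0 ± 331 CPM in those of 24 months, and none of the 7 markers passed in the slope. Among the 18-month libraries, male replicate 1 had the highest red cell sum (1090 CPM) and the highest Slc25a37 and Slc25a28 (17.7 and 45.0 CPM). Both calls at 18 months were kept without that library, and the part of red cells in the changes was not tested.

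**Figure D4:**
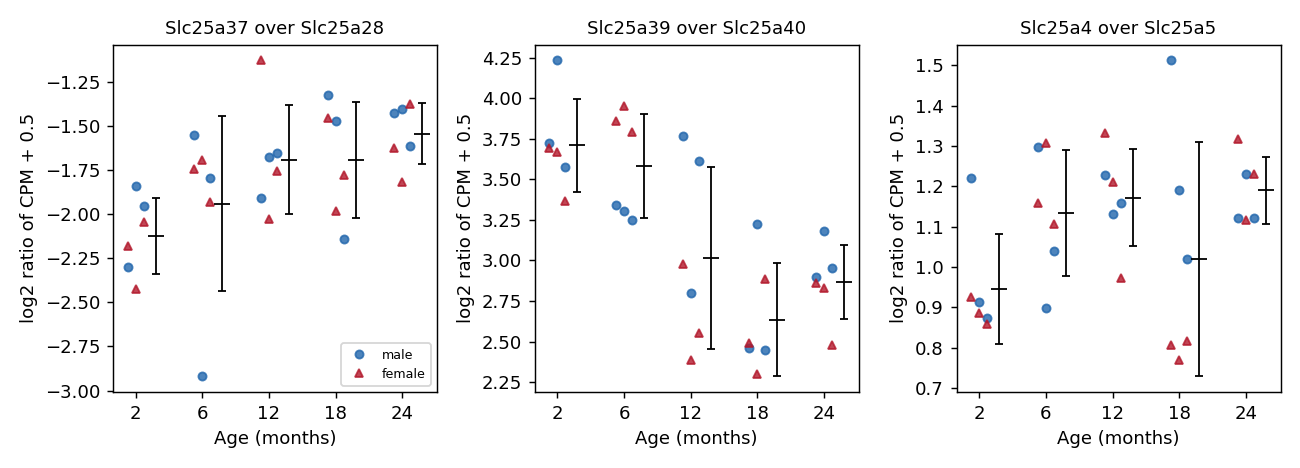
Log2 ratio of CPM + 0.5 within each library, by age, for the 3 pairs of related carriers whose ratio differed between 2 and 24 months; circles are males, triangles females, and bars beside each age the mean ± SD of 6 libraries. Slc25a37 over Slc25a28 rises from a mean of -2.12 to -1.54, Slc25a39 over Slc25a40 drops from 3.71 to 2.87, and Slc25a4 over Slc25a5 rises from 0.946 to 1.19.

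Among carriers of di- and tricarboxylates, glutamate and carnitine, Slc25a18 fell. This glutamate carrier (GRCm38 chr6:120773578-120794336, plus strand) is known in the brain mainly from astrocytes. At 2 months it held 5.30, 9.56 and 26.2 CPM (lowest, median and highest library), and at 24 months 3.31, 5.05 and 8.62 CPM. The ranges overlap. The slope was -1.09 ± 0.31 (adjusted p = 0.01999 in edgeR), and without male replicate 1 of 2 months it was -0.84 with an adjusted p of 0.06409. The call was also lost with reads outside genes as a covariate (-1.02 ± 0.37, adjusted p = 0.1685), without the 2-month libraries (-1.01 ± 0.38, adjusted p = 0.1026) and without the 18-month libraries (-1.01 ± 0.32, adjusted p = 0.06661). The change at 18 months was -1.05 ± 0.37 (adjusted p = 0.04506), and -1.20 ± 0.61 with that covariate (adjusted p = 0.4508). Male replicate 1 of 2 months had the highest summed astrocyte markers of all 30 (1180 CPM), and male replicate 2 of 6 months, second in Slc25a18 with 17.3 CPM, was also second in astrocyte markers with 687 CPM. The summed astrocyte markers were 646.5 ± 269 CPM at 2 months and 383.4 ± 122 CPM at 24 months, and 2 of the 7 markers fell in the slope; their part in the change of Slc25a18 was not tested. The related Slc25a22 held 24.7, 31.9 and 38.0 CPM at 2 months and 27.7, 29.7 and 34.6 CPM at 24 months, and the log2 ratio of Slc25a22 to Slc25a18 differed by 0.81 (exact permutation p = 0.05195, adjusted p = 0.1039 over 10 pairs).

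The citrate carrier Slc25a1 and the carnitine and acylcarnitine carrier Slc25a20 were lower at 18 months than at 2 months and were not called at 24 months. Slc25a1 held 138.7, 163.45 and 175.4 CPM at 2 months, 102.1, 120.3 and 158.8 CPM in the 18-month libraries, and 145.9, 168.2 and 180.9 CPM in those of 24 months. The change at 18 months was -0.35 ± 0.11 (adjusted p = 0.02691 in edgeR) and that at 24 months 0.02 ± 0.11 (adjusted p = 0.9546). With reads outside genes as a covariate the change at 18 months was -0.07 ± 0.18 (adjusted p = 0.9321). Slc25a20 held 69.5, 82.6 and 96.2 CPM at 2 months, 51.7, 63.9 and 75.7 CPM in the 18-month libraries, and 64.0, 83.3 and 113.1 CPM in those of 24 months. Its change was -0.36 ± 0.11 at 18 months (adjusted p = 0.02334) and 0.06 ± 0.11 at 24 months (adjusted p = 0.8316), and with that covariate it was 0.00 ± 0.17 at 18 months (adjusted p = 0.9967). In each gene the range at 18 months overlapped that at 2 months. The call was lost when any 1 of 7 libraries was left out for Slc25a1 and any 1 of 4 for Slc25a20. Slc25a12 and Slc25a13 are the aspartate and glutamate carriers of the malate-aspartate shuttle, and their log2 ratio was 4.32 ± 0.530 at 2 months and 5.10 ± 0.584 at 24 months. The ratio's difference of 0.78 missed the threshold (exact permutation p = 0.0368, adjusted p = 0.09199), and passed it without male replicate 2 of 2 months (0.97, adjusted p = 0.02165) or without male replicate 2 of 24 months (0.93, adjusted p = 0.0487). Slc25a13 was low, with a mean of 1.74 CPM over the 30 libraries and 0 in 1 of them, against a mean of 54.1 CPM for Slc25a12.

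Slc25a27, also known as UCP4, rose from low levels. Its lowest, median and highest libraries held 2.05, 3.38 and 4.55 CPM at 2 months, 5.69, 6.69 and 7.72 CPM in the 18-month libraries, and 3.17, 4.79 and 6.38 CPM in those of 24 months. The 18-month libraries lay above all 2-month libraries, and those of 24 months overlapped them. The slope was 0.86 ± 0.27 (adjusted p = 0.03582 in edgeR), and the change at 18 months was 1.04 ± 0.28 (adjusted p = 0.009566). With reads outside genes as a covariate the slope was 0.43 ± 0.31 (adjusted p = 0.6561) and the change at 18 months 0.79 ± 0.48 (adjusted p = 0.5796). The slope was 0.59 ± 0.28 without the 18-month libraries (adjusted p = 0.2799) and 0.74 ± 0.37 without the 2-month libraries (adjusted p = 0.2251), so its call was lost in each case. With the share of counts in the longer genes (exons above the median length) as a covariate the slope was 0.66 ± 0.28 (adjusted p = 0.1295). Without a filter on low counts it was 0.85 ± 0.28 (adjusted p = 0.05301), and in both fits the call was lost. It was also lost when any 1 of 12 libraries was left out, with adjusted p up to 0.06846; these were male replicates 1 and 2 and female replicates 1 and 2 of 2 months, male and female replicates 1 of 6 months, male replicates 1 and 3 and female replicates 1 and 2 of 18 months, and the replicates numbered 3 of both sexes at 24 months. Summed neuron markers were at most 8.56 CPM in any library, and none of the 6 passed in the slope. The relatives Slc25a14 and Slc25a30 did not pass the test.

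By single ages, the count of changed members was highest at 18 months, and all of these contrasts share the 2-month libraries. At 6 months 2 of 42 members were called, both lower, which is 4.76% against 8.76% of all genes tested (4.69% lower). At 12 months 1 member, Slc25a39, was lower, which is 2.38% against 2.94% of all genes (1.56% lower). At 18 months 3 were higher and 7 lower, which is 23.8% against 18.8% of all genes (10.1% higher and 8.7% lower). At 24 months 1 was higher and 2 lower, which is 7.14% against 8.35% of all genes (4.86% higher and 3.48% lower). The median change of the members at 18 months was -0.14 against 0.00 (-0.002602) for all genes tested, and 29 of 42 were negative. The summed CPM of the family was 2351 ± 89.0 (SD, n = 6) for the 2-month libraries, 2003 ± 95.7 for those of 18 and 2192 ± 103 for those of 24 months. The 18-month libraries were also those with most reads outside genes. With that share as a covariate no member was called at 18 months, at a rate of 1.27% over all genes, and the fitted changes of Slc25a4 and Slc25a20 turned to 0.04 and 0.00 (0.003729). The share did not overlap between these ages, at 3.82 to 6.61% for 2 months and 7.99 to 13.1% for 18 months. Age and reads outside genes thus cannot be told apart in this contrast. The 18-month libraries also had the highest mean share of counts in the longer genes (exons above the median length). It was 57.8 ± 2.41% (SD, n = 6) against 53.9 ± 1.72% at 2 months. Exons summed to 1646 to 4844 bases in the 7 lower members and 3749 to 6021 bases in the 3 higher ones. That share was not a covariate in this contrast, and its part was not tested. Of the 10 calls, those of Slc25a39, Slc25a37, Slc25a5, Slc25a28 and Slc25a27 were kept when any 1 library was left out. The others were each lost without any 1 of 4 (Slc25a20) to 15 (Slc25a4) libraries. The 10 calls came down to 5 or 6 without male replicate 2, female replicate 1 or female replicate 3 of 2 months or female replicate 2 of 18 months. In these fits 13.5 to 14.6% of all genes were called.

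**Figure D5:**
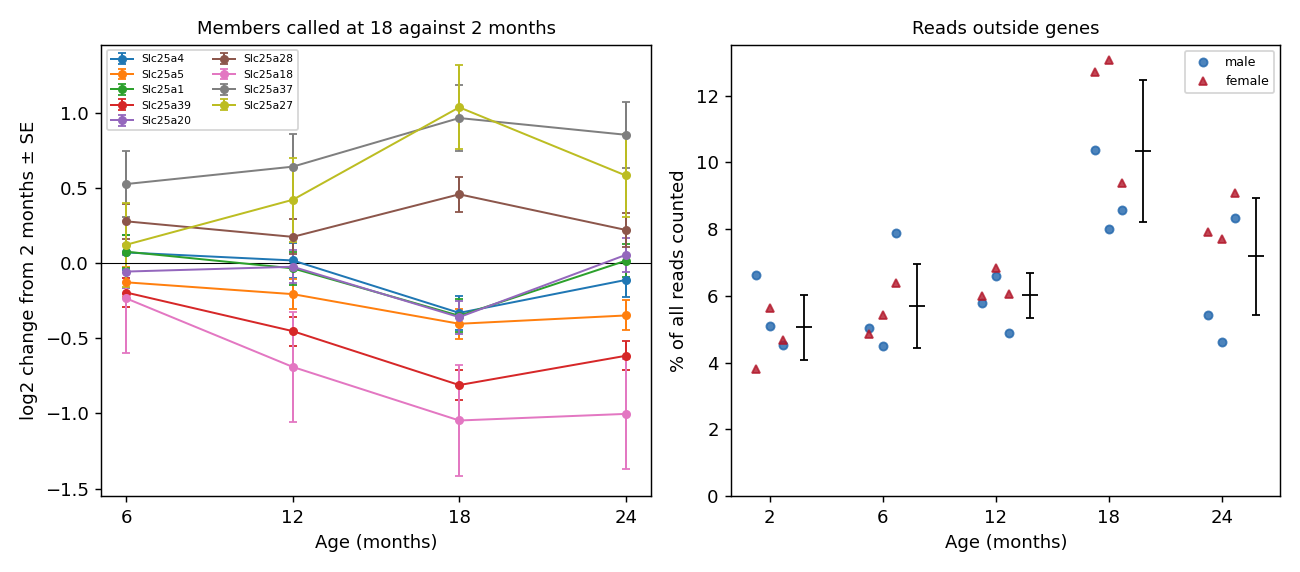
Left, log2 change from 2 months with its SE, by age, for 9 of the 10 members called at 18 months; right, share of all counted reads that lie outside genes, per library, with the mean ± SD beside each age. At 18 months 3 of the members drawn stand above 0 and 6 below, and the reads outside genes are at 7.99 to 13.1%, against 3.82 to 6.61% at 2 months.

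The members lower at 6 months were Slc25a15, the ornithine carrier of the urea cycle, and Slc25a46, an outer membrane protein of mitochondrial fission and lipid transfer. Slc25a15 held 25.8, 30.5 and 36.4 CPM at 2 months and 10.1, 17.5 and 30.2 CPM at 6 months, and the change was -0.67 ± 0.20 (adjusted p = 0.0333 in edgeR). Slc25a46 held 70.9, 93.2 and 100.1 CPM at 2 months and 34.5, 64.1 and 92.2 CPM at 6 months, with a change of -0.52 ± 0.16 (adjusted p = 0.04037). In both genes the 3 lowest libraries of 6 months were those of females, with 34.5 to 47.7 CPM for Slc25a46 against 80.5 to 92.2 CPM in the males. The female libraries of 6 months also had 44.3 to 47.6% of their counts in the longer genes (exons above the median length), against 51.7 to 56.1% in the males of that age; the part of this in the changes was not tested. The calls were lost without any 1 of 8 libraries for Slc25a15 and any 1 of 10 for Slc25a46, each of the 6-month females among them.

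The 5 ages departed from a straight line in 6 of 42 members, which is 14.3% against 17.7% of all genes tested. These were the pyrimidine nucleotide carriers Slc25a33 (adjusted p = 0.02142 in edgeR) and Slc25a36 (adjusted p = 0.0217), Slc25a39 (adjusted p = 0.02513), Slc25a20 (adjusted p = 0.03267), Slc25a1 (adjusted p = 0.03844) and Slc25a35, a carrier whose substrate is not assigned here (adjusted p = 0.04787). Slc25a33 had medians of 36.9, 41.9, 47.2, 25.1 and 31.6 CPM from the youngest to the oldest age. Slc25a36 had medians of 25.2, 18.3, 28.2, 29.9 and 23.2 CPM in the same order. The members of this pair thus stood apart in opposite ways at 6 and 18 months. Their exons sum to 1887 bases for Slc25a33 and 9594 bases for Slc25a36. The share of counts in the longer genes was 49.7 ± 4.51% (SD, n = 6) at 6 months and 57.8 ± 2.41% at 18 months. It was 53.9 ± 1.72% at 2 months and 53.9 ± 1.65% at 24 months, and its part in these values was not tested. The log2 ratio of Slc25a33 to Slc25a36 was 1.32 ± 0.628 (SD, n = 6) at 6 months and -0.23 ± 0.460 at 18 months, with ranges of 0.668 to 2.22 and -0.729 to 0.321 that do not overlap; these ages were picked after the values were seen. Between 2 and 24 months the ratio differed by 0.05 (exact permutation p = 0.8571). Slc25a35 shares 25.8% of its 50-base windows with other transcripts, chiefly the overlapping gene Rangrf, and the libraries do not keep strand, so its counts are uncertain. To a lesser degree this holds for Slc25a33, with 12.6% shared with Gm13068, which overlaps it on the other strand. Slc25a36 shares 11.8% with Gm13217. None of the 6 was called with the share of reads outside genes as a covariate.

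Sex gave no call among the members. In edgeR 0 of 42 passed for female against male, where 0.101% of all genes were called, and 7 had an unadjusted p under 0.05; DESeq2 and limma-voom also called 0. The smallest adjusted p was 0.5005, for Slc25a23, a carrier of ATP-Mg and phosphate, with 24.5 CPM on average in males and 20.5 CPM in females. For the difference in slope between the sexes 0 of 42 passed in edgeR, where 0% of all genes were called, and 1 member had an unadjusted p under 0.05; DESeq2 and limma-voom called 0 members as well. The median SE of that difference was 0.30 on the log2 scale, so differences well above that size may have been missed, and still larger ones where the SE is larger. For scale, in the slope on age Slc25a27 was called at 0.86 with an SE of 0.27 (adjusted p = 0.03582 in edgeR). Uncalled differences ran from -1.68 to 2.22 over all 42 members, those at a mean of up to 1 CPM included.

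Other genes of the same pathways, in lists drawn up from general knowledge, are given for the setting of these changes; over all genes tested 5.22% fell and 5.72% rose. With reads outside genes as a covariate no gene of the 3 lists that follow was called. Among the malate-aspartate shuttle and glutamate enzymes, 2 of 8 fell and 0 rose in the slope, namely Mdh1 (-0.53 ± 0.11, adjusted p = 0.001373 in edgeR) and Mdh2 (-0.30 ± 0.09, adjusted p = 0.02845), the cytosolic and mitochondrial malate dehydrogenases. Of 13 tested genes of haem and iron-sulphur synthesis and iron uptake, 2 fell and 0 rose. These were Glrx5, a glutaredoxin that passes on iron-sulphur clusters, with a mean of 82.8 ± 2.75 CPM (SD, n = 6) at 2 months and 60.4 ± 8.72 CPM at 24 months (slope -0.55 ± 0.12, adjusted p = 0.002569), and Isca1 (-0.35 ± 0.12, adjusted p = 0.04348). With most single libraries left out, 1 of these 2 calls was lost. Of 11 tested carnitine and citrate enzymes, 4 fell and 0 rose, with slopes of -0.42 to -0.25. Among them were Cpt2, Acadm and Hadhb, which act in fatty acid oxidation. The count of 4 came to 0 without female replicate 1 of 2 months, to 1 without male replicate 2 of 2 months or female replicate 3 of 24 months, and to 2 without male replicate 3 or female replicate 1 of 24 months. The shuttle count came to 1 without male replicate 2 or female replicate 1 of 2 months or female replicate 3 of 24 months.

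Among 23 other transporters of the mitochondrial membranes, 1 rose and 2 fell. Mcub, a subunit that restrains the calcium uniporter, rose, with 24.2 ± 3.95 CPM (SD, n = 6) in the 2-month and 43.7 ± 4.47 CPM in the 24-month libraries (slope 0.66 ± 0.14, adjusted p = 0.002091 in edgeR). The outer membrane channels Vdac2 (-0.23 ± 0.08, adjusted p = 0.0491) and Vdac3 (-0.27 ± 0.08, adjusted p = 0.02648) fell. The count of these 3 came to 1 without male replicate 2 of 2 months or female replicate 1 or 3 of 24 months, and to 5 without male replicate 3 of 6 months. None of 16 genes of the machinery that inserts carriers into the membrane passed in edgeR, although their median slope was -0.20, and DESeq2 called 1. None of 13 regulators of mitochondrial gene expression passed, nor did any of 4 tested relatives with other symbols. Of these, Ucp2 had a mean of 527.9 CPM and a slope of -0.24 ± 0.21 (adjusted p = 0.4942).

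Promoters are shown for 3 of the members that fell together at 18 months, the one with the smallest p-value and those that hold a GABPA-type motif. The sequences, from RefSeq on GRCm38.p6, run from 250 bases before to 50 bases after the start in the direction of transcription, and capitals mark matches to CCGGAAG on the strand shown.
Slc25a39: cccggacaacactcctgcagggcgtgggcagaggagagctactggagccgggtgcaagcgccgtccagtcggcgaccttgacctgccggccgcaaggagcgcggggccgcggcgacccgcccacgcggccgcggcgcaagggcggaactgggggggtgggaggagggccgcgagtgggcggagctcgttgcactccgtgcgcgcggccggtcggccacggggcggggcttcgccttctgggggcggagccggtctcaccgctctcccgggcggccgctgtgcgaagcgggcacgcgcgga
Slc25a4: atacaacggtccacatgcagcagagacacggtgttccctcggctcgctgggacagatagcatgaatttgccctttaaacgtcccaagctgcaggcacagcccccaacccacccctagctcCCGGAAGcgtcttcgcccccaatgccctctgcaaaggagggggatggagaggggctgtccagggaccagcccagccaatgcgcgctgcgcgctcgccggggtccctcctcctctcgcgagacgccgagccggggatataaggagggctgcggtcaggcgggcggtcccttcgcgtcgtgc
Slc25a20: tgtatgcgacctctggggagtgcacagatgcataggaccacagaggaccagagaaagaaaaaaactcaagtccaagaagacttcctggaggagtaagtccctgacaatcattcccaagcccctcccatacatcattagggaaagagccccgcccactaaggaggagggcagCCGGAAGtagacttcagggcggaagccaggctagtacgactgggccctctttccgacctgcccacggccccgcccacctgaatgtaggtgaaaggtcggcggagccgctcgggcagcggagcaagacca
Their places are chr11:102407468-102407767 (minus strand), chr8:46211013-46211312 (minus strand) and chr9:108661886-108662185 (plus strand). The RefSeq table held 46 promoters of 36 members. CCGGAAG, a core of sites of the GABPA factor that acts on many nuclear genes for mitochondrial proteins, was on either strand in 7 of these 46 promoters, or 15.2%, against 8.86% of all 32851 promoters. Which factor binds such matches, and the part of GC content in these shares, were not tested. Of the 7 members lower at 18 months 6 had a promoter in the table and 2 of them, Slc25a4 and Slc25a20, held the motif. Also searched on both strands were the NRF1 motif (4.35% of member promoters against 4.6% of all), AAGGTCA (2.17% against 4.72%), AAGATGGCG (2.17% against 1.4%), TGATGNAA (0% against 3.97%) and TATAAA (4.35% against 13.6%), and none of these motifs overlapped CCGGAAG in the promoters shown. The promoter of Slc25a39 held none of the 6 motifs and had a GC content of 77.3%, against a median of 59.3% over the members' promoters and 52.7% over all promoters. This stretch lies inside the span of the gene in GENCODE M21, which on the minus strand begins at base 102407946. The lack of motifs thus holds for this RefSeq start alone. Most of the Slc25a4 stretch, its CCGGAAG included, also lies inside its gene, which begins at base 46211284 on the minus strand. The match in Slc25a4 thus lies before the RefSeq start but not before the GENCODE one.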

How the data were processed

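Per the submitters' processing notes, FastQC 0.11.4, STAR 2.5.2b, MultiQC and HTSeq were used with GRCm38 (mm10), and per the labels' protocols cDNA came from SMART-Seq v4 and Nextera XT, without strand or molecular identifiers. Reads of 50 bases were paired for 24 libraries and single for 6; the labels do not say which, so the sequencer is in no model. The authors deposited raw read counts per gene and library, not normalized. Column 2, which counts either strand, was taken, since forward reads made up 49.7 to 50.0% of stranded counts. The 4 lines that name no gene held 21.5 to 29.2% of all reads and stayed out of library sizes and tests. Of 48795 identifiers, 48349 were found in the table of gene names, which gave the symbols, and 48435 in GENCODE M21, which gave coordinates and exon lengths.

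Low genes were removed by filterByExpr with the ages as groups (count of at least 10, total of at least 15). Libraries were then scaled by TMM and tested in edgeR 4.0.16 (R 4.3.3) with robust quasi-likelihood fits over all 30 libraries, adjusted by Benjamini and Hochberg over all genes tested. The slope took age in months and sex, and is given over 22 months. Contrasts took age as a factor and sex, and the departure from a line was a joint test of 3 polynomial terms. The fit was tested on simulated data with known changes. Ratios of related carriers used log2(CPM + 0.5) and an exact permutation test in Python 3.11.15 with scipy 1.17.1. Promoters came from RefSeq.

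Members, lists and tests were chosen with earlier results of these data known. The genes named with full values were members that passed a test (up to 8 per test), the 6 highest per kb of exon, members of pairs whose ratio differed, and list genes that passed the slope; other members and list genes were named for context after their values were seen. Alternatives were DESeq2 1.42.0, limma-voom (limma 3.58.1), other scalings, filters and pseudocounts, covariates for library make-up, log2 of age, and leaving out ages, a sex or single libraries. PCR copies are counted as reads. Results for 1 member and 1 list gene are counted but not reported here by name. Replicates were numbered in accession order, as names only.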

Additional observations from a re-analysis of the deposited data

Results flagged for a closer look

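A library was singled out where, on log2(CPM + 0.5), its gap to the nearest of the other 5 libraries of its age, divided by the whole range, exceeded Dixon's critical value for 6 values. This was done for 18 named members, which made 90 groups; chance gives about 1 such library in 20 groups, and 4 were found. At 24 months, male replicate 1 had 131.9 CPM of Slc25a11, the oxoglutarate and malate carrier, against 104.2 to 112.2 CPM in the other libraries. At 12 months, male replicate 3 had 9.603 CPM of Slc25a27 against 2.454 to 4.173 CPM. At 2 months, male replicate 3 had 197.2 CPM of the phosphate carrier Slc25a3, the lowest, against 230.0 to 237.0 CPM. At 6 months, male replicate 2 had 3.957 CPM of the mitoferrin Slc25a37, also the lowest, against 7.279 to 10.1 CPM. With 4 in 90 groups, the number is about what chance gives.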

How the results depend on the processing

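Of 5 members called in the slope, the count was 1 with reads outside genes as a covariate, 1 without the 2-month libraries and 2 without the 18-month libraries. It was 0 in males alone and 2 in females alone. Over all genes 10.9% were called in the slope of the main fit. In the same order of settings that share was 2.39%, 5.65%, 4.45%, 1.14% and 3.71%, so it fell as well. With the share of counts in the longer genes as a covariate 6 members were called in the slope (10.2% of all genes), and Slc25a27 was not among them. With reads outside genes as a covariate the other counts became 0 of 10 at 18 months and 1 of 3 at 24 months. For the departure from a line 0 of 6 were left with it. The shares over all genes were then 1.27%, 5.69% and 5.37%, against 18.8%, 8.35% and 17.7% in the main fit. The count for the departure was 10 with DESeq2 (24.6% of all genes) and 3 without a filter (7.43%). At 6 months the count of 2 was 1 without a filter, where the share over all genes went from 8.76% to 3.12%. With reads outside genes as a covariate the change at 18 months was close to none for Slc25a20 (0.003729) and Slc25a4 (0.04068), with only its sign turned. The cause was not tested. The median slope was -0.22 without the 24-month libraries. Lists of pathway genes with that covariate gave 1 of 3 other membrane transporters and 0 for shuttle, carnitine and citrate, and haem and iron-sulphur enzymes; DESeq2 gave 5 other transporters and 1 gene of the import machinery.

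Leaving out single libraries gave 3 to 5 members in the slope (3 without male replicate 1 of 2 months), 1 to 10 for the departure from a line, and against 2 months 0 to 3 (age 6), 1 to 2 (age 12), 5 to 10 (age 18) and 2 to 4 (age 24). Over all genes the share called ranged over 7.65 to 11.8% in the slope and 11 to 21.7% for the departure. Against 2 months it was 4.45 to 12.7% (age 6), 1.87 to 3.31% (age 12), 13.5 to 19.3% (age 18) and 5.99 to 8.74% (age 24). Lists ranged over 1 to 5 other transporters, 0 to 1 import genes, 1 to 3 shuttle enzymes, 0 to 4 carnitine and citrate enzymes and 1 to 2 haem and iron-sulphur genes. The ratio difference ranged over 0.2186 to 0.2988 for Slc25a4 to Slc25a5 and 0.5979 to 0.9688 for Slc25a12 to Slc25a13. No paired analysis was possible because the codes in the sample titles are not replicate numbers shared between ages, and the labels do not say what they stand for. Members at a mean of up to 1 CPM, and the 5 not tested, are limited by depth.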
